A study of Homo sapiens with 10 samples.

Results

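The genes described here are 7 matrix metalloproteinases (MMP1, MMP2, MMP3, MMP9, MMP10, MMP12 and MMP14) and 3 of their tissue inhibitors (TIMP1, TIMP2 and TIMP3). They were chosen by symbol, through the Ensembl identifier of each row, and followed over 5 groups of IMR90 cells. IMR90 is an established human fetal lung fibroblast line. Of the 10 listed genes, 9 were matched among 57736 gene rows, and 8 had enough counts to be tested among 16760 genes. MMP12, the macrophage elastase, could not be matched to a row through its identifier and was not analysed here. MMP9 was matched but had too few counts for a test. The identifiers of the matched rows were ENSG00000196611 (MMP1), ENSG00000087245 (MMP2), ENSG00000149968 (MMP3), ENSG00000100985 (MMP9), ENSG00000166670 (MMP10), ENSG00000157227 (MMP14), ENSG00000102265 (TIMP1), ENSG00000035862 (TIMP2) and ENSG00000100234 (TIMP3).

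Each group held 2 samples. Control cells received an empty retrovirus and a non-targeting siRNA. Senescent control cells received a retrovirus expressing RAS, an oncogene that drives fibroblasts into senescence, and the non-targeting siRNA. The METTL3 knockout cells received RAS and an siRNA against METTL3, the catalytic subunit of the enzyme complex that writes the m6A mark on RNA. The titles call this a knockout, although an siRNA lowers RNA and deletes no gene. The wild type knock-in and the mutant knock-in cells received RAS, the siRNA against METTL3 and a lentivirus carrying wild type or mutant METTL3. The siRNA was given on day 4 after the retrovirus and again on the next day together with the lentivirus, and cells were harvested 48 hours later. The protocol text names METTL14 where the titles and column names give METTL3, and the sources used here do not name the METTL3 mutant. The word vec stands in the column names of the knockout but not in those of senescent control, so an effect of an empty lentivirus cannot be told apart from that of the METTL3 siRNA. Whether the 2 samples of a group came from separate cultures is not stated in the labels, and the p-values therefore rest on a spread that may be technical.

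Matrix metalloproteinases are zinc-dependent proteases that are made as inactive zymogens and cut the proteins of the extracellular matrix once their propeptide is removed. MMP1 is the interstitial collagenase, MMP3 and MMP10 are stromelysins, and MMP2 and MMP9 are the gelatinases. MMP14 sits in the membrane and activates MMP2 with TIMP2 as its adaptor. TIMP proteins bind the active sites of these enzymes and block them. TIMP3 is held in the matrix and also inhibits proteases of the ADAM family. Senescent fibroblasts are known for secreting MMP1, MMP3 and MMP10 among the factors of the senescence-associated secretory phenotype. The data measured RNA and not protein, zymogen activation or enzyme activity.

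Promoters of 4 of the 10 genes were found in a RefSeq table of build GRCh38.p14, which is another build than the hg19 of the counts. The 250 bases before the start site are shown for 3 genes whose RNA moved differently below: MMP10, TIMP1 and TIMP3. They were MMP10 at chr11:102780629-102780878 on the minus strand, TIMP1 at chrX:47582186-47582435 on the plus strand and TIMP3 at chr22:32801455-32801704 on the plus strand. Capitals mark matches, on either strand, to an AP-1 motif (TGANTCA, N being any base), a TATA box (TATAAA), a GC box (GGGCGG, read as CCGCCC on the other strand) and an ETS core (AGGAAG), and no 2 marked matches overlap.
MMP10: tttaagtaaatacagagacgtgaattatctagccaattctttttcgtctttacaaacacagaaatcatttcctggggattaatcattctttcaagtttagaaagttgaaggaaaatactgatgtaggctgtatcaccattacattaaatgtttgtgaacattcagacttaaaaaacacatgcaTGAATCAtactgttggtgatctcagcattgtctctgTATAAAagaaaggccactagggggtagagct
TIMP1: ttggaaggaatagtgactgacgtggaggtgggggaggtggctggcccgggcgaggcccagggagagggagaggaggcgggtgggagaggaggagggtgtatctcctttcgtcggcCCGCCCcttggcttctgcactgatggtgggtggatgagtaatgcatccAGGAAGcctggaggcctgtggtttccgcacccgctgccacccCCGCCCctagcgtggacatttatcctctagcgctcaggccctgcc
TIMP3: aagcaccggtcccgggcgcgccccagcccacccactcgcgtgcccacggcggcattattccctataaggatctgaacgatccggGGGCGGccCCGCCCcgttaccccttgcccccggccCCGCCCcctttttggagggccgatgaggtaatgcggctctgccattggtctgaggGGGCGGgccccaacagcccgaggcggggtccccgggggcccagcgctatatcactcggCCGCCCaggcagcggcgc

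The MMP10 promoter held 1 AP-1 match, 67 to 61 bases before the start, and 1 TATA box, 31 to 26 bases before it. Among 35116 promoters of the same length, 6.57% held the AP-1 motif and 10.7% the TATA box. Neither exact letter pattern was found in the windows of TIMP1, TIMP3 or MMP14. The TIMP3 window held 5 GC boxes, that of TIMP1 held 2 together with 1 ETS core, and that of MMP14 held 1 GC box. GC boxes were found in 42.6% and the ETS core in 28.7% of all windows. The layout was not particular to MMP10. Its cluster neighbour MMP7 held an AP-1 match at the same 67 to 61 bases before the start. The TATA box of MMP7 lay 30 to 25 bases before the start. MMP20 held an AP-1 match 112 to 106 bases and a TATA box 72 to 67 bases before it. The windows of the cluster genes MMP8 and MMP27 held no AP-1 match. Neither did those of the flanking genes YAP1, BIRC3, BIRC2, TMEM123, DCUN1D5 and DYNC2H1. MMP7 and MMP20 had 1 count each over both senescent control samples. A match describes letters and does not show that a factor binds there. A window without an exact match may hold a variant of the motif, and variants were not searched for.

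Total counts ran from 16293975 to 23570266 per sample. METTL3, the targeted gene, stood at 77.1 CPM (counts scaled to a common library total) ± 6.20 (SD, n = 2) in control, 52.3 ± 7.09 in senescent control and 26.1 ± 4.02 in the knockout. It reached 58250 CPM ± 184 in the wild type knock-in and 130900 ± 23810 in the mutant knock-in, so the knock-ins carried METTL3 RNA far above its control level and not equally. HRAS stood at 14.7 CPM ± 0.105 in control, 61.2 ± 0.201 in senescent control, 40.2 ± 0.905 in the knockout, 46.1 ± 3.77 in the wild type and 26.7 ± 4.29 in the mutant knock-in. The number of genes with at least 1 count was 22705 and 22844 in the senescent control samples, against 25265 and 25582 in the mutant knock-in. The summed level of 10 fibroblast markers ran from 13980 to 17240 CPM in control and from 5214 to 5882 in the mutant knock-in, with all 10 detected in every group. Leukocyte markers summed to between 67.1 and 79.7 CPM in the samples of control, senescent control and knockout, and to between 157.7 and 177.7 CPM in both knock-ins. Most of this was CD68, a lysosomal protein of macrophages that other cells also make, at 76.4 CPM in the knockout, 156.1 in the wild type and 165.9 in the mutant knock-in. The part of these markers in the differences between knock-ins and knockout was not tested. The epithelial markers summed to between 66.0 and 73.8 CPM in control and between 21.3 and 25.1 in the mutant knock-in. Of these, KRT5, SFTPC and NKX2-1 were at 0 in every group. The endothelial markers summed to between 20.4 and 22.3 CPM in control and between 25.5 and 27.0 in the mutant knock-in, with CLDN5 at 0 in every group.

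MMP1 had the highest level per length of all the listed genes in senescent control cells. Its CPM was 125 and 137 in the control samples, 3050 and 3090 in senescent control, 562 and 577 in the knockout, 639.8 and 725 in the wild type knock-in and 739 and 641 in the mutant knock-in. The senescent control samples were far above all others, the 3 groups with the METTL3 siRNA were close together, and control was lowest. The knock-ins overlapped each other, and the knockout samples were below both.

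MMP3, a stromelysin that can also activate the MMP1 zymogen, was likewise highest in senescent control and lowest in control. Its CPM was 8.75 and 7.66 in control, 408 and 396 in senescent control, 43.4 and 43.8 in the knockout, 44.6 and 51.7 in the wild type knock-in and 47.2 and 41.7 in the mutant knock-in. The mutant knock-in samples overlapped those of the knockout and those of the wild type knock-in, while both wild type samples lay above both knockout samples. MMP10, also a stromelysin, was near the limit of what these libraries could measure. Its raw counts were 6 and 7 in control, 31 and 42 in senescent control, 6 and 6 in the knockout, 4 and 9 in the wild type knock-in and 21 and 16 in the mutant knock-in. Senescent control and the mutant knock-in were high, and the other 3 groups overlapped.

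MMP2 behaved unlike MMP1, MMP3 and MMP10. Its CPM was 332 and 275 in control, 245 and 240 in senescent control, 168 and 176 in the knockout, 347 and 351 in the wild type knock-in and 298 and 301 in the mutant knock-in. The knockout was lowest and the wild type knock-in highest, while the mutant knock-in lay within the range of control. MMP14, which activates MMP2 at the cell surface, varied less than the other tested genes, with group means from 383 to 589.9 CPM. Its CPM was 425 and 340.2 in control, 589.5 and 590.3 in senescent control, 508 and 561 in the knockout, 533 and 628 in the wild type knock-in and 509.6 and 461 in the mutant knock-in. Control was below every other group, and each of the other groups overlapped its neighbour in the order of the means. MMP9, the gelatinase of leukocytes and epithelia, had 1 count in 1 control sample and 0 in all other libraries. A total of 3 counts, the limit that a count of 0 allows, came to 0.131 to 0.190 CPM per library, so MMP9 was not detectable at this depth.

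The inhibitors each followed a different order. TIMP1 stood at 598 and 517 CPM in control, 1017 and 994 in senescent control, 512 and 538 in the knockout, 545 and 606 in the wild type knock-in and 462 and 427 in the mutant knock-in. Senescent control was above the rest, and the mutant knock-in was below all other samples. TIMP2 stood at 1292 and 958 CPM in control, 813 and 856 in senescent control, 853 and 885 in the knockout, 401 and 442 in the wild type knock-in and 459 and 399 in the mutant knock-in. Both knock-ins were low and overlapped each other, and control samples differed more between themselves than those of any other group. TIMP3 stood at 685 and 582 CPM in control, 388 and 476 in senescent control, 776 and 851 in the knockout, 398 and 394 in the wild type knock-in and 293 and 299 in the mutant knock-in. The knockout was highest, the mutant knock-in lowest, and senescent control overlapped the wild type knock-in.

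**Figure D1:**
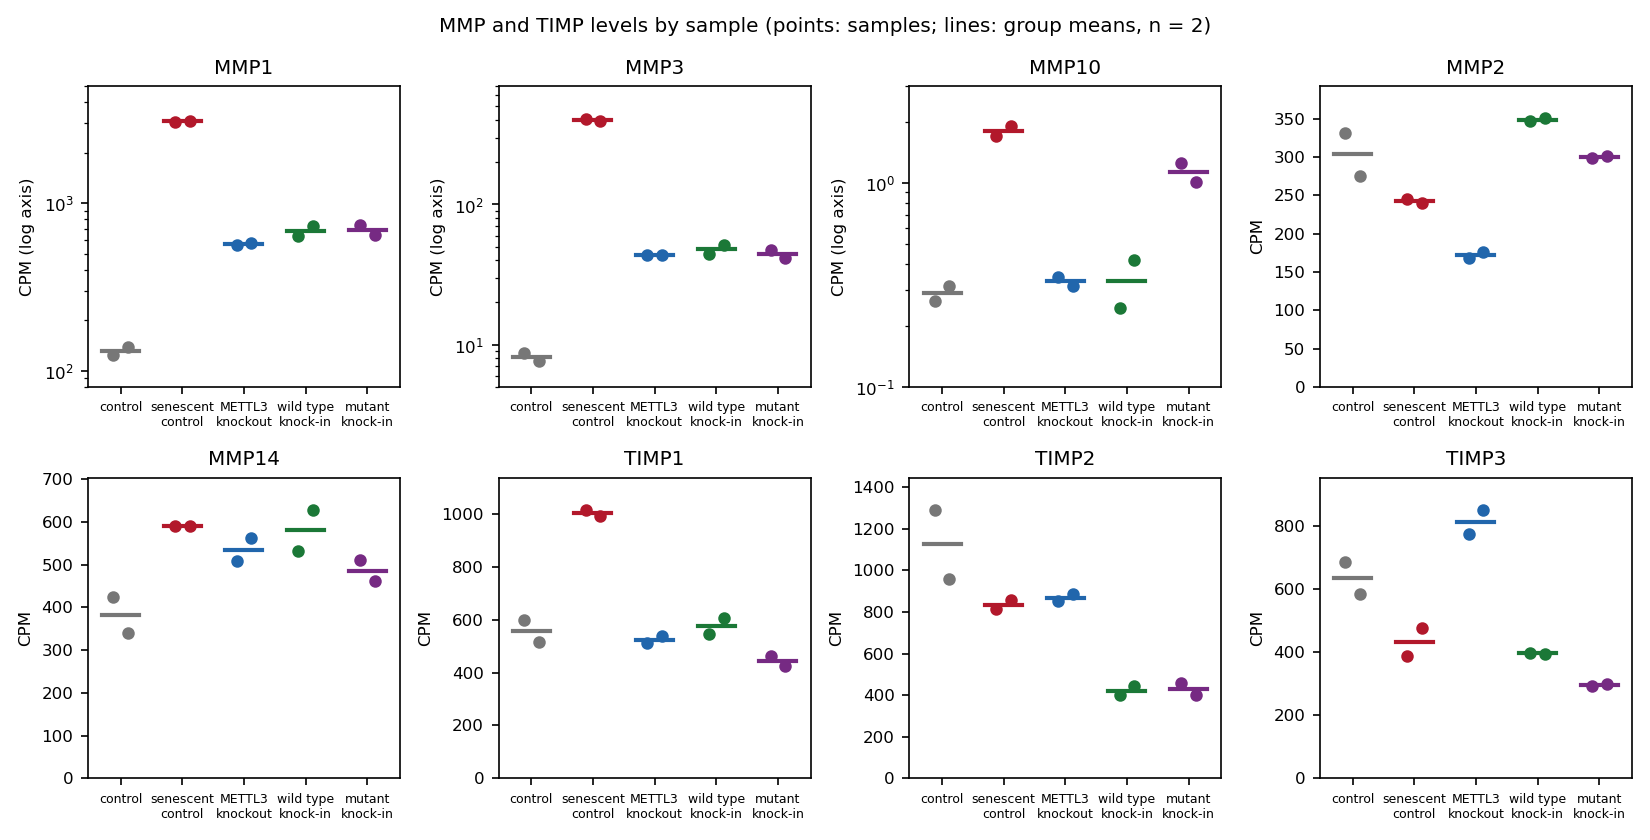
Level of each tested gene in CPM (y axis; log axis for MMP1, MMP3 and MMP10) in the 5 groups (x axis), with 1 point per sample and a line at each group mean of 2 samples. MMP1 in senescent control (3050 and 3090 CPM) lies above all other samples, whereas TIMP2 is lowest in both knock-ins and TIMP3 is highest in the knockout.

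Levels can be compared between genes only per length, and CPM was therefore divided by kilobases of exon, with lengths from an annotation of build GRCh38 and not the authors' own. On this scale the mean of MMP1 was 66.5 CPM per kilobase in control, 1558 in senescent control, 289 in the knockout, 347 in the wild type and 350.4 in the mutant knock-in. TIMP1, the most abundant inhibitor, had 362, 653, 340.4, 373 and 288 CPM per kilobase in the same order of groups. MMP1 thus stood below TIMP1 in control, the knockout and the wild type knock-in, and above it in senescent control and the mutant knock-in. MMP1 made up 27.5% and 33.9% of the summed MMP level in control, 80.2% and 80.7% in senescent control, and 60.6% to 65.4% in the other groups.

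The summed level of the MMP genes over that of the TIMP genes describes how the RNA of proteases and inhibitors was balanced. The ratio was 0.300 and 0.325 in control and 2.17 and 2.16 in senescent control. It was 0.697 and 0.689 in the knockout, 1.05 and 1.09 in the wild type knock-in and 1.29 and 1.24 in the mutant knock-in. No groups overlapped. The MMP sum was 454 and 476 CPM per kilobase in the knockout and 574 and 511 in the mutant knock-in, while the TIMP sum was 652 and 691 in the knockout and 445 and 413 in the mutant knock-in. The ratio of MMP14 to TIMP2, the pair that acts on MMP2, was 0.752 and 0.801 in the knockout, 1.68 and 1.795 in the wild type and 1.40 and 1.46 in the mutant knock-in. These sums are descriptions of the listed genes and were given no test.

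**Figure D2:**
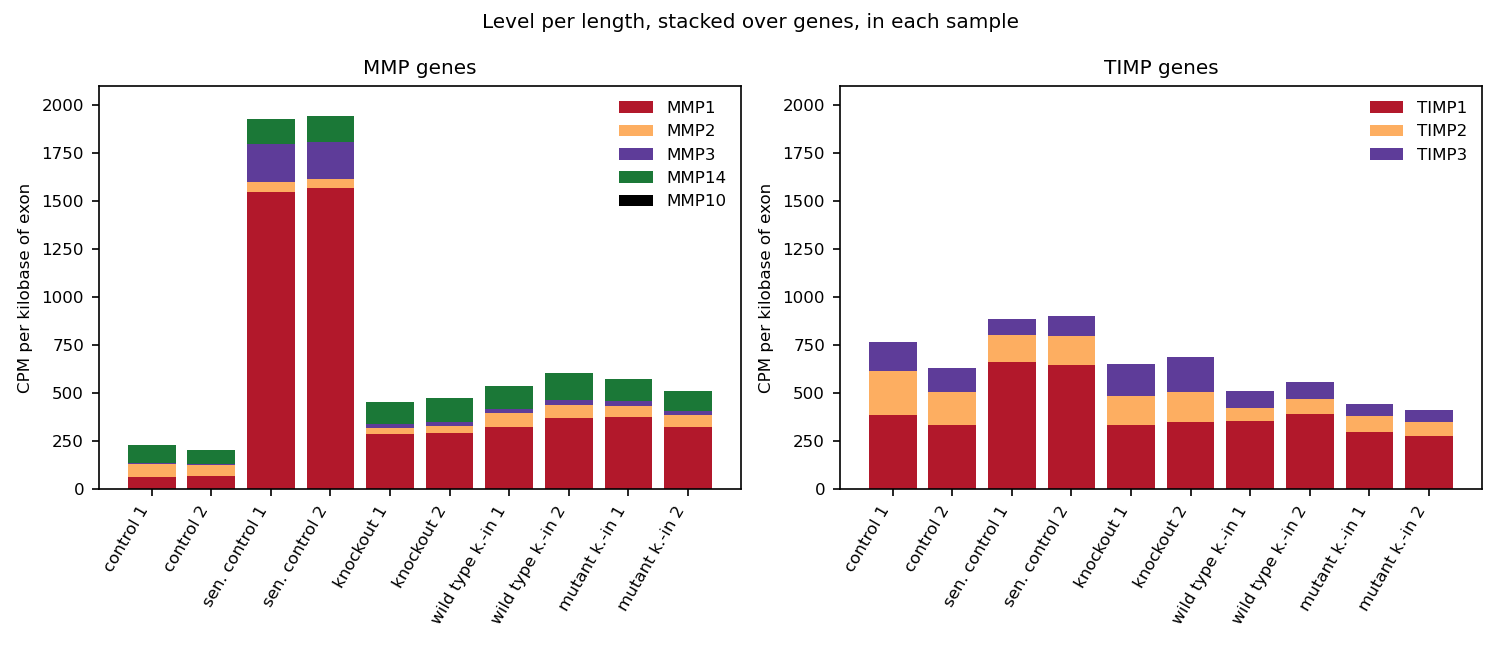
Stacked level per length (CPM per kilobase of exon, y axis) of the MMP genes (left) and the TIMP genes (right) in each of the 10 samples (x axis). MMP1 makes up most of the MMP bars of senescent control (1930 and 1944 in all), and the TIMP bars are lowest in the mutant knock-in (445 and 413).

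The first comparison, senescent control against control, addressed RAS-driven senescence. MMP1, MMP3 and MMP10 rose steeply, MMP14 and TIMP1 rose modestly, and MMP2, TIMP2 and TIMP3 fell. All 8 tested genes passed edgeR's test, 5 upward and 3 downward, where 45% of all genes tested were called, 19.7% upward and 25.3% downward. MMP3 rose by 5.61 on the log2 scale (SE 0.13, adjusted p = 5.98e-11) and MMP1 by 4.55 (SE 0.11, adjusted p = 1.29e-10). MMP10 rose by 2.63 (SE 0.38, adjusted p = 1.54e-04). TIMP1, which inhibits most secreted MMP proteins, rose by 0.85 (SE 0.10, adjusted p = 2.42e-05), a smaller change than that of MMP1. MMP14 rose by 0.62 (SE 0.12, adjusted p = 0.00117). The matrix-bound inhibitor TIMP3 fell by 0.55 (SE 0.11, adjusted p = 0.00174). TIMP2 fell by 0.43 (SE 0.13, adjusted p = 0.0169) and MMP2 by 0.32 (SE 0.10, adjusted p = 0.0162). The median log2 change of the 8 genes was 0.74, against -0.03 over all genes. In a bulk sample, fewer cells that express a gene and less of its RNA per cell cannot be told apart. The falls of MMP2 and TIMP2 rested on single samples. Without control 1, senescent control 1 or senescent control 2, the adjusted p of MMP2 was 0.0684, 0.0967 and 0.135 (range over its alternatives 3.40e-05 to 0.142), and that of TIMP2 was 0.0990, 0.131 and 0.0783 (4.78e-06 to 0.131).

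Other related genes moved in both directions. In the lists below 50% to 59.1% of the tested genes were called, not far from the 45% of all genes, 19.7% upward and 25.3% downward. Of 9 other MMP and TIMP genes tested, 1 rose and 4 fell: MMP16, a membrane-type MMP, rose by 1.47 (SE 0.15), from 65.9 to 182 CPM, while the stromelysin MMP11 fell by 1.72 (SE 0.32) and MMP19 by 0.68 (SE 0.12). Of 22 ADAM and ADAMTS proteases 9 rose and 4 fell, with ADAM19 up by 1.50 (SE 0.12) and ADAMTS15, an aggrecan-cutting enzyme, down by 4.20 (SE 0.31). Among 20 genes of MMP activation, inhibition and clearance 7 rose and 4 fell. TFPI2, a matrix-associated inhibitor of the serine proteases that activate MMP zymogens, rose by 2.68 (SE 0.11) to 953 CPM, and THBS1, a matrix glycoprotein that takes part in MMP clearance, fell by 1.55 (SE 0.13). Of 21 matrix substrates 3 rose and 8 fell, with the collagen-binding proteoglycan DCN down by 2.39 (SE 0.12). Among 18 transcription factors known to bind MMP promoters 5 rose and 4 fell. The AP-1 subunits FOS and FOSB rose by 3.53 (SE 0.22) and 2.69 (SE 0.29) and JUNB by 1.04 (SE 0.14), while FOSL2 fell by 1.23 (SE 0.10).

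The comparison of the knockout with senescent control addressed the loss of METTL3 in cells that had received RAS. MMP1, MMP3, MMP10, MMP2 and TIMP1 fell, and TIMP3 rose. In all 6 of the 8 tested genes were called, 1 upward and 5 downward, where 15.8% of all genes were, 7.17% upward and 8.62% downward. MMP3 fell by 3.21 (SE 0.11, adjusted p = 6.39e-09) and MMP1 fell by 2.43 (SE 0.10, adjusted p = 5.13e-08). MMP10 fell by 2.44 (SE 0.39, adjusted p = 0.00104), from 73 to 12 counts over both samples. TIMP1 fell by 0.94 (SE 0.10, adjusted p = 5.24e-05) and MMP2 by 0.50 (SE 0.10, adjusted p = 0.00394). TIMP3 rose by 0.91 (SE 0.11, adjusted p = 1.78e-04). MMP14 (-0.14, SE 0.12, adjusted p = 0.494) and TIMP2 (0.06, SE 0.13, adjusted p = 0.827) did not pass. The median log2 change of the 8 genes was -0.72, against 0.01 over all genes. Senescence and the METTL3 siRNA thus had opposite signs for MMP1, MMP3, MMP10, TIMP1 and TIMP3 and the same sign for MMP2; both comparisons share the senescent control samples. HRAS stood at 40.2 CPM in the knockout and 61.2 in senescent control, and its part in these changes was not tested. The count of all genes called was 2646 and lay between 1198 and 1368 whichever of the 4 samples was left out. The call of MMP2 was lost without knockout 1 (adjusted p = 0.0547, range 1.98e-07 to 0.0547).

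The knockout did not bring every gene to its control level. Against control cells, MMP1 was higher by 2.12 (SE 0.10, adjusted p = 7.52e-08) and MMP3 by 2.41 (SE 0.12, adjusted p = 7.52e-08), whereas MMP10 (0.19, SE 0.50, adjusted p = 0.803) and TIMP1 (-0.09, SE 0.10, adjusted p = 0.480) did not pass. MMP2 was below its control level, with a log2 change of -0.82 (SE 0.10, adjusted p = 4.38e-05). MMP14 (0.48, SE 0.12), TIMP3 (0.36, SE 0.11) and TIMP2 (-0.37, SE 0.13) also passed, which made 6 of 8 genes called, 4 upward and 2 downward, beside 46.4% of all genes, 19.7% upward and 26.7% downward. Without knockout 2 the adjusted p was 0.0526 for MMP14 (range 9.57e-05 to 0.0526) and 0.106 for TIMP3 (2.61e-04 to 0.106). TIMP2 missed the threshold without control 1 (0.251), knockout 1 (0.185) or knockout 2 (0.135) and under 4 other settings (range 1.78e-05 to 0.251). Without knockout 2, 3 of the 8 genes and 5014 of all genes were called, against 7772 with all samples.

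The wider lists were also read for the knockout against senescent control, where 15.8% of all genes were called, 7.17% upward and 8.62% downward. The share called ran from 22.2% of the other MMP and TIMP genes to 52.4% of the matrix substrates. None of the 20 activation and clearance genes rose and 7 fell, among them TFPI2 by 2.21 (SE 0.11), from 953 to 206 CPM, and the lysosomal protease CTSL by 1.15 (SE 0.09). MMP16 fell by 0.84 (SE 0.15) and MMP19 rose by 0.72 (SE 0.13), the 2 calls among the other MMP and TIMP genes. Of the ADAM and ADAMTS proteases 3 rose and 5 fell: ADAMTS15 rose by 2.55 (SE 0.37), while ADAMTS9 fell by 1.53 (SE 0.17) and the procollagen processing enzyme ADAMTS3 by 1.52 (SE 0.26). Substrates rose in 7 cases and fell in 4 of 21, with elastin (ELN) up by 2.53 (SE 0.47) from 0.238 to 1.45 CPM. Among the transcription factors 2 rose and 5 fell, with JUNB down by 0.95 (SE 0.14), ETS2 by 0.89 (SE 0.09) and CEBPB by 0.83 (SE 0.13).

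**Figure D3:**
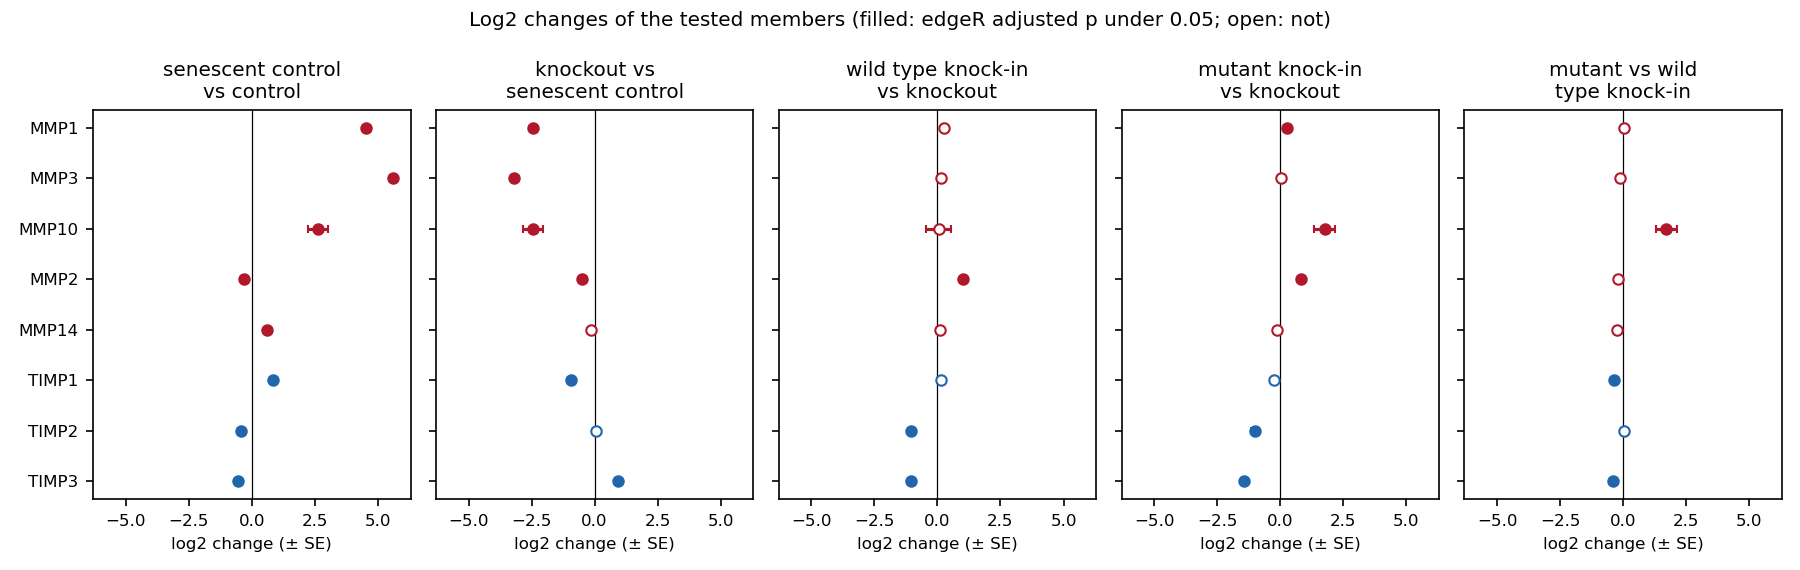
Log2 change with its SE (x axis) of the 8 tested genes (y axis) in 5 comparisons, filled where edgeR's adjusted p was under 0.05; MMP genes are red and TIMP genes blue. MMP1 and MMP3 lie far right after senescence (4.55 and 5.61) and far left after the METTL3 siRNA (-2.43 and -3.21), while both knock-ins move TIMP2 and TIMP3 to the left.

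Returning wild type METTL3 was tested by setting its knock-in against the knockout. MMP2 rose and TIMP2 and TIMP3 fell, while MMP1, MMP3 and MMP10, the genes with the largest changes after RAS, did not pass the test. The 3 calls among 8 genes, 1 upward and 2 downward, stand beside 33.3% of all genes, 18.5% upward and 14.8% downward. MMP2 rose by 1.02 (SE 0.10, adjusted p = 1.28e-05). TIMP2 fell by 1.04 (SE 0.13, adjusted p = 9.90e-05) and TIMP3 also by 1.04 (SE 0.11, adjusted p = 3.35e-05). MMP1 had a log2 change of 0.26 (SE 0.10, adjusted p = 0.0599), MMP3 of 0.15 (SE 0.10, adjusted p = 0.314) and MMP10 of 0.05 (SE 0.50, adjusted p = 0.955). MMP14 (0.12, SE 0.12) and TIMP1 (0.13, SE 0.10) did not pass either. MMP1 passed under upper-quartile scaling (adjusted p = 0.0496) and when only these 2 groups were fitted (0.00334, range 0.00334 to 0.493). The count of all genes called was 5584, and 3390, 3446 and 3551 without knockout 1, knockout 2 and wild type knock-in 1, with 3 of the 8 genes called each time.

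Against senescent control, 6 of the 8 genes were called in the wild type knock-in, 1 upward and 5 downward, where 39.9% of all genes were, 20.8% upward and 19.1% downward. MMP1 was lower by a log2 change of -2.17 (SE 0.10), MMP3 by -3.06 (SE 0.11) and MMP10 by -2.39 (SE 0.38). TIMP1 (-0.81, SE 0.10) and TIMP2 (-0.99, SE 0.13) were lower as well, and MMP2 was higher by 0.53 (SE 0.10, adjusted p = 0.00104). TIMP3 (-0.13, adjusted p = 0.402) and MMP14 (-0.02, adjusted p = 0.900) did not pass. Without senescent control 2, 6 of the 8 genes and 4367 of all genes were called, against 6679 with all samples.

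The wider lists were read for the wild type knock-in against the knockout, where 33.3% of all genes were called. Of the 18 transcription factors known to bind MMP promoters 11 rose and 0 fell, with a median log2 change of 0.48 against 0.02 over all genes. ATF3, a stress-induced member of the AP-1 group, rose by 4.19 (SE 0.18), from 3.32 to 60.5 CPM, NFKB1 by 1.67 (SE 0.11) and RUNX2 by 1.16 (SE 0.12). MMP19 rose by 1.27 (SE 0.11), the single call among the other MMP and TIMP genes. Of 22 ADAM and ADAMTS proteases 2 rose and 7 fell. Activation and clearance genes rose in 6 and fell in 7, with the proprotein convertase PCSK7 down by 0.68 (SE 0.10) and THBS1 by 0.94 (SE 0.12). Substrates rose in 2 and fell in 6, with the proteoglycan LUM up by 1.26 (SE 0.15) and COL1A1 down by 0.91 (SE 0.20).

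The mutant knock-in was compared with the same knockout samples. MMP10 and MMP2 rose, TIMP2 and TIMP3 fell, and MMP1 passed by a small margin, so that 5 of 8 genes were called, 3 upward and 2 downward, beside 48.4% of all genes, 24.1% upward and 24.3% downward. MMP10 rose by 1.77 (SE 0.42, adjusted p = 0.00422), which rested on 37 counts over both mutant samples against 12 over both knockout samples. MMP2 rose by 0.80 (SE 0.10, adjusted p = 3.83e-05). TIMP3 fell by 1.46 (SE 0.11, adjusted p = 1.57e-06) and TIMP2 by 1.02 (SE 0.13, adjusted p = 6.29e-05). MMP3 was at 44.5 CPM ± 3.89 (SD, n = 2) against 43.6 ± 0.286 in the knockout (log2 change 0.03, SE 0.11, adjusted p = 0.832). MMP14 (-0.14, SE 0.12, adjusted p = 0.354) and TIMP1 (-0.24, SE 0.10, adjusted p = 0.0587) did not pass. MMP1 rose by 0.28 (SE 0.10, adjusted p = 0.0348), and this call was lost whichever of the 4 samples was left out: 0.231 without knockout 1, 0.174 without knockout 2, 0.317 without mutant knock-in 1 and 0.0746 without mutant knock-in 2 (range over its alternatives 5.62e-04 to 0.317).

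Against senescent control the mutant knock-in had 6 of 8 genes called, 1 upward and 5 downward, beside 53.3% of all genes, 27% upward and 26.3% downward. MMP1 (-2.15, SE 0.10), MMP3 (-3.18, SE 0.11), TIMP1 (-1.18, SE 0.10), TIMP2 (-0.96, SE 0.13) and TIMP3 (-0.55, SE 0.11) were lower and MMP2 was higher (0.31, SE 0.10, adjusted p = 0.0178). MMP10, at -0.67 (SE 0.32, adjusted p = 0.0989), and MMP14, at -0.28 (adjusted p = 0.0638), did not pass. The call of MMP2 was lost without senescent control 1 (0.0915), senescent control 2 (0.121), mutant knock-in 1 (0.0806) or mutant knock-in 2 (0.125), with a range of 2.30e-04 to 0.125.

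In the wider lists, read for the mutant knock-in against the knockout (48.4% of all genes called), 12 of 18 transcription factors rose and 1 fell, with ATF3 up by 4.49 (SE 0.18), NFKB1 by 2.17 (SE 0.11) and ETS2 by 1.17 (SE 0.10). The neutrophil collagenase MMP8 rose by 3.30 (SE 0.67), from 0.142 to 1.41 CPM, and MMP19 by 1.47 (SE 0.11), 2 of the 3 calls among the other MMP and TIMP genes, which were all upward. Of 21 matrix substrates 1 rose and 13 fell, among them both chains of type I collagen, the main substrate of MMP1: COL1A1 fell by 1.47 (SE 0.20) and COL1A2 by 1.26 (SE 0.13). The summed fibroblast markers, which include these collagens, stood at 5214 to 5882 CPM against 9975 to 10550 in the knockout, and their part was not tested. Activation and clearance genes rose in 3 cases and fell in 7. RECK, a membrane-anchored MMP inhibitor, fell by 1.04 (SE 0.11), from 127 to 61.7 CPM. ADAM and ADAMTS proteases rose in 4 cases and fell in 9.

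**Figure D4:**
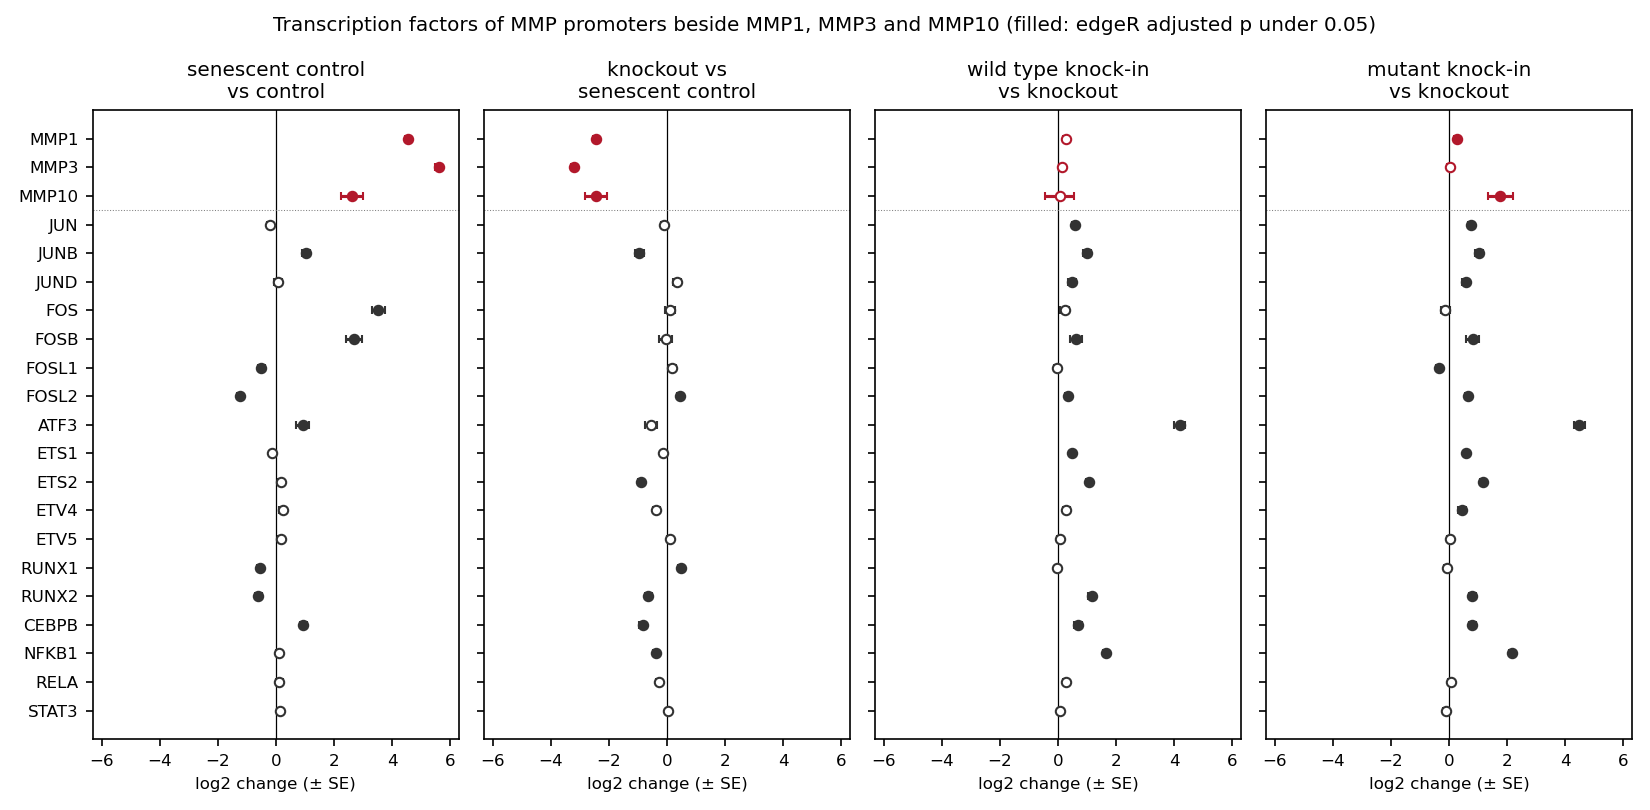
Log2 change with its SE (x axis) of MMP1, MMP3 and MMP10 (red) and of 18 transcription factors known to bind MMP promoters (black) in 4 comparisons, filled where edgeR's adjusted p was under 0.05. ATF3 stands apart in both knock-ins (4.19 and 4.49), where MMP3 lies near 0 (0.15 and 0.03).

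The knock-ins were compared with each other directly. MMP1, MMP3 and TIMP2 reached levels that the test did not separate, MMP10 was higher in the mutant, and TIMP1 and TIMP3 were lower. The 3 calls among 8 genes, 1 upward and 2 downward, stand beside 12.5% of all genes, 5.16% upward and 7.39% downward. MMP10 differed by 1.72 (SE 0.41, adjusted p = 0.0208), with 37 counts over the mutant and 13 over the wild type samples. TIMP3 was lower by a log2 change of -0.42 (SE 0.11, adjusted p = 0.0312) and TIMP1 by -0.37 (SE 0.10, adjusted p = 0.0286). MMP2 (-0.22, SE 0.10, adjusted p = 0.153), MMP14 (-0.26, SE 0.12, adjusted p = 0.171), MMP3 (-0.12, adjusted p = 0.501), MMP1 (0.02, adjusted p = 0.936) and TIMP2 (0.03, adjusted p = 0.920) did not pass. HRAS was lower in the mutant by a log2 change of -0.78 (SE 0.11, adjusted p = 0.00229), and its part in these differences was not tested. METTL3 RNA was higher in the mutant by 1.17 (SE 0.14, edgeR's adjusted p = 0.00127), so its level cannot be told apart from the mutation. Without wild type knock-in 1, wild type knock-in 2, mutant knock-in 1 and mutant knock-in 2, the adjusted p of MMP10 was 0.0891, 0.0935, 0.119 and 0.109 (range 0.0149 to 0.119) and that of TIMP3 was 0.0855, 0.176, 0.139 and 0.173 (3.58e-04 to 0.176). That of TIMP1 was 0.0387, 0.255, 0.0821 and 0.224 (0.00174 to 0.255), and the count of all genes called went from 2103 to between 123 and 1178.

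In the lists, the proprotein convertase PCSK5 was higher in the mutant by 1.09 (SE 0.14, adjusted p = 0.00140). MMP8 was higher by 1.91 (SE 0.55, adjusted p = 0.0419) and RECK lower by a log2 change of -0.49 (SE 0.11, adjusted p = 0.0177), and both lost their call whichever of the 4 samples was left out: the adjusted p reached 0.239 for MMP8 without wild type knock-in 2 and 0.220 for RECK without mutant knock-in 2. Of 21 substrates 6 were lower and 0 higher, which is 28.6% called beside 12.5% of all genes, 5.16% upward and 7.39% downward.

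MMP1, MMP3, MMP10 and MMP12 lie in a cluster of MMP genes on chromosome 11, so their neighbours were read in chromosome order. The other cluster genes were nearly silent. Over both samples MMP7 had 1, 1, 2, 1 and 9 counts in control, senescent control, knockout, wild type knock-in and mutant knock-in. MMP27 had 0, 0, 0, 1 and 13 counts in the same order, MMP8 2, 3, 5, 14 and 46, the collagenase MMP13 0, 4, 1, 8 and 18, and MMP20 0, 1, 0, 0 and 2. MMP7, MMP27, MMP8 and MMP13 were therefore highest in the mutant knock-in and not in senescent control, where MMP1, MMP3 and MMP10 were highest. MMP20 had too few counts for an order of the groups, and of these nearly silent genes only MMP8 was tested. The mutant knock-in also had the most genes with a count, and whether that bears on these low counts was not tested. The flanking gene BIRC3, an inhibitor of apoptosis, rose with senescence by 1.66 (SE 0.18) and over the knockout by 2.59 (SE 0.16) in the wild type and 2.68 (SE 0.16) in the mutant knock-in. Its lower level in the knockout than in senescent control (-0.56, SE 0.17, adjusted p = 0.0452) was lost whichever of the 4 samples was left out, at 0.114 and 0.286 without senescent control 1 and 2 and 0.265 and 0.143 without knockout 1 and 2. YAP1, a transcriptional coactivator at the edge of the region, fell by 0.74 (SE 0.08) with the METTL3 siRNA. WTAPP1, a pseudogene on the opposite strand, shares 150 exon bases with MMP1 and 32 with MMP3, and had 15 counts in all 10 libraries. TIMP1 and TIMP3 overlap SYN1 and SYN3 on the opposite strand and share 0 exon bases with them, and TIMP2 shares 198 exon bases with CEP295NL and 367 with an antisense gene.

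**Figure D5:**
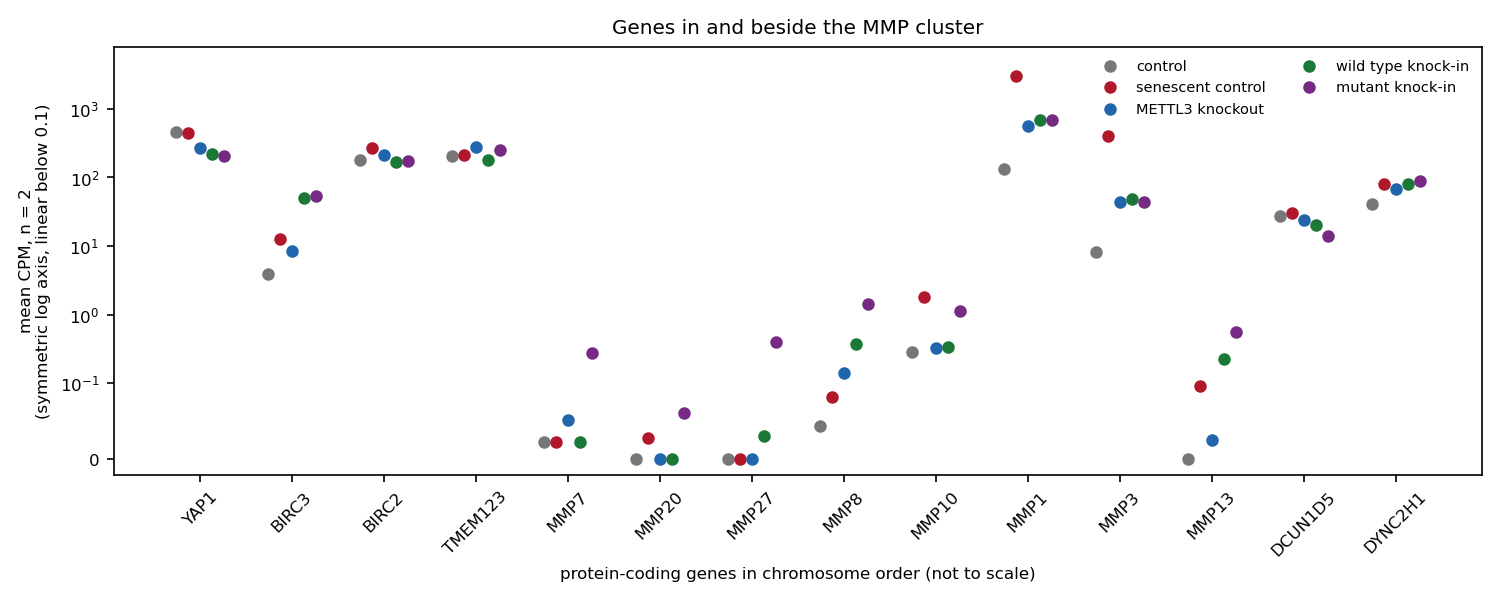
Mean CPM of 2 samples (y axis, symmetric log scale that is linear below 0.1) of genes in and beside the MMP cluster, in chromosome order and not to scale (x axis), with 1 point per group. MMP1 and MMP3 are highest in senescent control, and MMP7, MMP27, MMP8 and MMP13 in the mutant knock-in.

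Genes whose profile over the 10 samples was nearest to a listed gene were found by the root mean square (RMS) difference of centred log2 CPM. Nearest to MMP1 were EREG, a ligand of the EGF receptor family (RMS difference 0.234), LCE2A, a cornified envelope gene (0.278), and the cystatin CST1 (0.298), against an SD of 1.52 for MMP1 itself. Nearest to MMP3 were the granulocyte growth factor CSF3 (0.434), CST1 (0.472) and TAGLN3 (0.493), against an SD of 1.88. The inhibitors had other neighbours. TIMP1 was nearest to the receptor ACVRL1 (0.084), the cytoskeletal adaptor PDLIM1 (0.090) and the transglutaminase TGM2 (0.113), against an SD of 0.43. TIMP2 was nearest to PDLIM7 (0.104), the actin crosslinker FLNC (0.107) and GPSM1 (0.117), against an SD of 0.62, and TIMP3 to TXNRD3 (0.172), the collagen gene COL3A1 (0.172) and TM4SF1 (0.178), against an SD of 0.55. CST1 was the single gene named for more than one of them. The median RMS difference over all genes was 1.50 for MMP1, 1.83 for MMP3, 0.556 for TIMP1, 0.678 for TIMP2 and 0.630 for TIMP3. The 10 samples share their groups, and the measure is a description.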

How the data were processed

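RNA was sequenced from 10 samples of IMR90 cells, and the sample titles gave their 5 groups. Per the labels' protocols, the KAPA RNA HyperPrep kit was used to build libraries of total RNA. The submitters' processing notes name Bowtie2, RSEM 1.2.12 and the build hg19. The values are whole-number counts of reads per Ensembl gene, as the authors deposited them, without normalization. The sources used here do not name the annotation, the strand setting or the treatment of shared reads, so overlapping and antisense genes cannot be separated.

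Groups were compared in 8 comparisons by edgeR 4.0.16 (R 4.3.3). After filterByExpr at a minimum count of 10 there were 16760 of 57736 genes, scaled by TMM. A single model with a term per group covered all samples and left 5 residual degrees of freedom. The robust quasi-likelihood F test was two-sided, its p-values were adjusted by Benjamini-Hochberg over all genes, and the threshold was 0.05. Rose, fell, higher and lower mean that a gene passed it. CPM values divide counts by the TMM-scaled totals, and each SE was computed from a log2 change and its F value. Tested on simulated data for knockout against senescent control, the procedure found 72% of genes with a 2-fold and 89% of those with a 4-fold change, and made 6 false calls in 16218 genes. The simulation gave all groups the same spread and, apart from the changed genes, the same levels, which these data do not have. Its false calls therefore do not measure the error rate in these samples. In no group were the 2 libraries the same by a chi-square comparison, which did not compare libraries of different groups. Per gene the chi-square came to 34.4 in control, 5.07 in senescent control and 5.24 in the knockout. In the wild type and mutant knock-ins it came to 6.13 and 7.16. All of these exceed what counting error alone would give, and the control samples differed most, while the model covers all groups together. Precision rests on counting error, on the spread between samples and on 2 samples per group.

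The listed genes and the gene lists were chosen with earlier results of these data known. Genes named from a list were among the 3 with the largest change in their direction that passed, and not all such genes were named. With senescence, for example, ADAM28 was left out. It rose by 2.39, more than ADAM19, from 3 to 15 counts over both samples. The 3 genes nearest in profile were named as well. METTL3 and HRAS were named as checks, and BIRC3, YAP1, the overlapping genes and the silent cluster genes after their values were seen. Alternatives were upper-quartile scaling, DESeq2 1.42.0 size factors, the DESeq2 test, no filter, METTL3 removed, 2 groups fitted alone, a replicate block and each sample left out.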

Additional observations from a re-analysis of the deposited data

Results flagged for a closer look

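The effect of the mutant knock-in over the knockout differed from that of the wild type knock-in, by the direct test of one against the other, for MMP10, TIMP1 and TIMP3. The difference was 1.72 on the log2 scale for MMP10, -0.37 for TIMP1 and -0.42 for TIMP3. Both effects share the knockout samples. The knock-ins also differed in METTL3 RNA, at 58250 CPM in the wild type and 130900 in the mutant. MMP10 rested on 4 and 9 counts in the wild type and 21 and 16 in the mutant samples, while TIMP1 and TIMP3 had at least 9624 counts in each knock-in group. The calls of TIMP1 and TIMP3 were nevertheless lost under upper-quartile scaling, with edgeR's adjusted p at 0.0539 and 0.0511. Leaving out one sample gave differences of 1.40 to 2.21 for MMP10, -0.47 to -0.27 for TIMP1 and -0.43 to -0.41 for TIMP3. The calls of MMP10 and TIMP3 were lost whichever knock-in sample was left out. That of TIMP1 was lost without wild type knock-in 2, mutant knock-in 1 or mutant knock-in 2.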

How the results depend on the processing

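Over 701 recomputed changes of the tested MMP and TIMP genes, 630 kept their direction and their side of the threshold, 41 lost a call, 10 gained one and 20 changed sign, none of the 20 being called. The rises of MMP1, MMP3, MMP10, MMP14 and TIMP1 with senescence, the falls of MMP1, MMP3, MMP10 and TIMP1 with the METTL3 siRNA and the falls of TIMP2 and TIMP3 in both knock-ins held under every alternative run. DESeq2 gave no adjusted p for MMP10 in 3 comparisons. Scaling moved the median of all genes by at most 0.096.

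Changes of sign were as follows. Under upper-quartile scaling TIMP1 was at 0.001 (knockout against control) and MMP14 at 0.0225 (wild type knock-in against senescent control). With no filter MMP3 was at -0.0145 (mutant knock-in against knockout), and MMP1 at -0.022 and TIMP2 at -0.0122 (mutant against wild type). With 2 groups fitted TIMP1 was at 1e-04 (knockout against control). Leaving out one sample gave -0.1452 to 0.0353 for TIMP1 (knockout against control), -0.2905 to 0.0049 for TIMP3 and -0.1833 to 0.0968 for MMP14 (wild type knock-in against senescent control). It gave -0.0103 to 0.2458 for MMP3, -0.4642 to 0.3438 for MMP10 and -0.05 to 0.2305 for MMP14 (wild type knock-in against knockout), and -0.0707 to 0.0549 for MMP3 (mutant knock-in against knockout). For mutant against wild type it gave -0.0991 to 0.1318 for MMP1, -0.0885 to 0.1313 for TIMP2 and -0.2362 to 0.019 for MMP3.

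Counts of calls moved with the fit. For mutant against wild type, 1 of the listed genes was called under upper-quartile scaling, 5 with 2 groups fitted and 0 to 1 when one sample was left out. With 2 groups fitted 5621 genes were called for knockout against senescent control, 5108 for knockout against control and 4078 for mutant against wild type. With one sample left out the counts were 1198 to 1368, 5014 to 9129 and 123 to 1178 in the same order, 4367 to 5367 for wild type knock-in against senescent control and 3390 to 4150 for wild type knock-in against knockout; 3 to 6 listed genes were called for knockout against control. In the main fit 2646 genes were called for knockout against senescent control and 2103 for mutant against wild type, fewer than with 2 groups fitted. For knockout against control the main fit called 7772, more than with 2 groups fitted. The cause was not tested.

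Replicate numbers did not pair the samples: correlations of deviations between groups ran from -0.12 to 0.0608, and 2 of 10 samples correlated best with their own number. With the replicate block 2538 genes were called for knockout against senescent control and 1923 for mutant against wild type, the same number of listed genes was called in each of the 8 comparisons, and among the named genes MMP8 lost its call (mutant against wild type, adjusted p = 0.0542). Depth limits MMP9 and MMP10, and MMP7, MMP8, MMP13, MMP20 and MMP27 of the cluster.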
